A study of Mus musculus with 11 samples.

Results

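The cytosolic ribosomal protein genes were defined here as genes whose symbol begins with Rpl or Rps followed by a digit, together with Rplp0, Rplp1, Rplp2 and Rpsa, with kinase, binding-protein and pseudogene names left out. A gene also had to have an Affymetrix probe set annotated to 1 gene symbol, and the probe set with the highest mean over the 11 arrays stood for the gene. Of the 18193 genes on the array, 48 met the rule: 21 of the small subunit, 22 of the large subunit and 5 paralogs (Rpl22l1, Rps27l, Rpl7l1, Rpl39l and Rpl3l). Of these, 46 passed the filter on low values and were tested among 14806 genes. Rpl3l lay above the filter level on 1 array and Rps16 on 0, and neither was tested. Rplp1, Rps27a, Rpl5, Rpl10, Rpl3, Rpl32, Rpl36a, Rpl36al and Rpl10l had no probe set with a single symbol and are not analysed here.

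The RNA came from CD8+ T cells of pmel-1 mice, which carry a transgenic T cell receptor for a peptide of the melanocyte protein gp100. Cells enriched as naive (CD44-) or central memory (CD44+) were activated on plates coated with antibodies to CD3 and CD28, restimulated with peptide on allogeneic feeder cells, and grown with interleukin 2 at 10 cetus units for 2 weeks. They then received either a last CD3/CD28 stimulation of 4 h or none. In 3 separate experiments, memory-derived cells were measured unstimulated on 3 arrays and stimulated on 3, and naive-derived cells unstimulated on 2 and stimulated on 3.

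Ribosomal proteins assemble with ribosomal RNA into the small subunit, which reads the mRNA, and the large subunit, which joins amino acids. Their mRNAs are among the most abundant in growing cells, and most begin with a run of pyrimidines, the 5′ terminal oligopyrimidine (TOP) motif, through which growth signals acting on mTOR and the La-related protein LARP1 set how well they are translated. T cell activation is known to raise ribosome production, and for this mRNA class much of the control acts on translation, which RNA arrays do not measure.

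The annotated start sites of 8 members are shown because the TOP motif at that position marks the class. Each window holds 15 bases before and 15 from the annotated start, from RefSeq on GRCm38.p6, written 5′ to 3′ on the gene's strand. Capitals mark an unbroken run of C and T that begins with a C at the start site. The first 4 windows, of Rps6 (chr4:86857353-86857382, minus strand), Rplp2 (chr7:141447636-141447665, plus), Rpl35 (chr2:39005117-39005146, minus) and Rps10 (chr17:27635230-27635259, minus), hold such a run.
Rps6: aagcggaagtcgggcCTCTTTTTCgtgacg
Rplp2: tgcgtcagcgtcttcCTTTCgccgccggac
Rpl35: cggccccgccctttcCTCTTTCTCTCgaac
Rps10: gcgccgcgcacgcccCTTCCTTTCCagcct
The other 4 windows belong to 4 of the 5 members that passed a test below (Rps20 is not shown), and none of these 4 has such a run at the annotated base. They are Rpl7l1 (chr17:46782642-46782671, minus), Rps25 (chr9:44407699-44407728, plus), Rps2 (chr17:24720048-24720077, plus) and Rps15 (chr10:80292416-80292445, plus). The annotated Rps2 gene begins at base 24718121, upstream of its window, so this is not its most upstream annotated base.
Rpl7l1: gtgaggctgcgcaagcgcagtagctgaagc
Rps25: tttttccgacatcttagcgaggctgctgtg
Rps2: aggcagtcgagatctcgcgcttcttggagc
Rps15: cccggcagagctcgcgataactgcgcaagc
Over longer windows, from 250 bases before to 50 after the start, 43 members had an entry, in 51 windows. A C at the start followed by at least 4 bases of C or T was found in 15.7% of the members' windows. That was 8 of the 43 members, so lacking it does not set the 4 passing members above apart. The first 4 windows shown were picked from these 8. A run that begins some bases away from the annotated start was not counted. Its absence at that base therefore does not show that an mRNA lacks the TOP motif. Of all 32851 windows, 2.51% had it. The letters CCGGAA, the core bound by ETS factors such as GABP, were found on either strand in 54.9% of the members' windows and 14.9% of all windows. The members' windows were also richer in G and C, with a median of 57.7% compared with 52.7%. The part of base content in the motif shares was not tested. The E-box CACGTG, bound by MYC with MAX, was found in 9.8% of the members' windows and 7.15% of all, and TATAAA in 11.8% and 13.6%. Both strands were searched for these last 3 motifs, none of which contains another, and a match describes the sequence only.

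The members were tied to the top of every array's scale. All values below are on a log2 scale, obtained by multiplying the deposited values, read as log10, by 3.32. Among the 100 highest probe sets of an array, 67 to 74 listed a ribosomal protein symbol, alone or with other symbols, and 23 to 25 were the sets that stood for members. A member's set was the highest of all on 8 of 11 arrays. On every array, 35 of the 48 members lay above the 99th percentile, a level of 9.22. The arrays had been quantile normalized before deposit, with the same sorted values on each, so a level near the top is in effect a rank, and a change shared by most sets at the top cannot be seen in these values.

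The cells' identity and RNA were checked with markers. All 5 CD8 T cell markers on the array (Cd8a, Cd8b1, Cd3d, Cd3e and Cd3g) were above the filter level, with array means of 8.32 to 9.13. Of the B cell markers 3 of 5 and of the myeloid markers 6 of 6 passed the filter, at array means of 1.38 to 1.75 and 1.61 to 2.22, near the filter level of 1.54. Of the CD4 and regulatory T cell, NK cell and erythroid markers, 1 of 2, 1 of 1 and 1 of 2 passed it. The summed level of the CD8 list was 11.46 to 11.49 in memory-derived unstimulated cells, 10.85 to 10.91 in memory-derived stimulated cells, 11.49 to 11.55 in naive-derived unstimulated cells and 11.14 to 11.30 in naive-derived stimulated cells. In the same order the summed B cell list was at 3.76 to 3.96, 3.80 to 3.88, 4.11 to 4.11 and 3.94 to 4.07, and the myeloid list at 4.63 to 4.88, 4.70 to 4.77, 4.58 to 4.58 and 4.38 to 4.58. Several of these summed ranges differed between groups, by less than 1 unit. Single markers differed more between the origins, as naive-derived minus memory-derived cells. Unstimulated, the myeloid markers lay at -1.20 to 0.40 and the CD8 markers at -0.40 to 1.04. Stimulated, they lay at -1.21 to 0.27 and 0.04 to 1.23. The part of these differences in the results was not tested. The actin 3′ minus 5′ difference, which grows as RNA is degraded or labelled short, was 0.87 to 1.17 in memory-derived unstimulated cells, 1.43 to 1.73 in memory-derived stimulated cells, 1.54 to 1.59 in naive-derived unstimulated cells and 1.93 to 2.60 in naive-derived stimulated cells. These ranges did not overlap in any comparison made below. The same difference for Gapdh was -1.51 to -1.29, -1.43 to -1.38, -1.65 to -1.42 and -1.82 to -1.48 in that order, with overlap in both stimulation comparisons and between the unstimulated origins, and it was lower in naive-derived than in memory-derived stimulated cells, where actin was higher. The part of RNA quality in the results was not tested.

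Across the 4 groups the members' levels were close. The highest and lowest group mean of a member differed by 0.05 (Rpsa) to 1.59 (Rpl39l), with a median of 0.44, and by under 0.5 in 27 of 46 members. The spread between arrays of a group was of similar size for the more variable members, with SDs of 0.04 to 1.20 in memory-derived unstimulated cells (median 0.16) and 0.05 to 0.76 in naive-derived stimulated cells (median 0.20). Relative to its mean in memory-derived unstimulated cells, the median member lay between -0.06 and 0.03 on those 3 arrays, -0.04 and 0.01 on the memory-derived stimulated arrays, -0.07 and -0.03 on the naive-derived unstimulated arrays and -0.14 and -0.02 on the naive-derived stimulated arrays.

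Rpsa, the small-subunit protein also known as the laminin receptor, and Rplp0, the large-subunit protein that anchors the stalk, lay near the top of the scale and differed in how much they varied. Rpsa had the smallest difference between group means of the 46 members, and that of Rplp0, 0.53, was above the median. Rpsa was at 13.64, 13.76 and 13.81 in memory-derived unstimulated cells, 13.72, 13.95 and 13.61 in memory-derived stimulated cells, 13.68 and 13.76 in naive-derived unstimulated cells and 13.57, 13.72 and 14.01 in naive-derived stimulated cells. The 4 groups of Rpsa overlapped throughout. Rplp0 was at 12.58, 13.00 and 12.61, then 12.36, 12.18 and 12.71, then 12.16 and 12.29, and then 12.46, 12.58 and 13.23 in the same order of groups. Both naive-derived unstimulated arrays and memory-derived stimulated array 2 were the lowest for Rplp0, and none of the 5 comparisons made below passed for it (adjusted p 0.154 to 0.597 in limma).

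**Figure D1:**
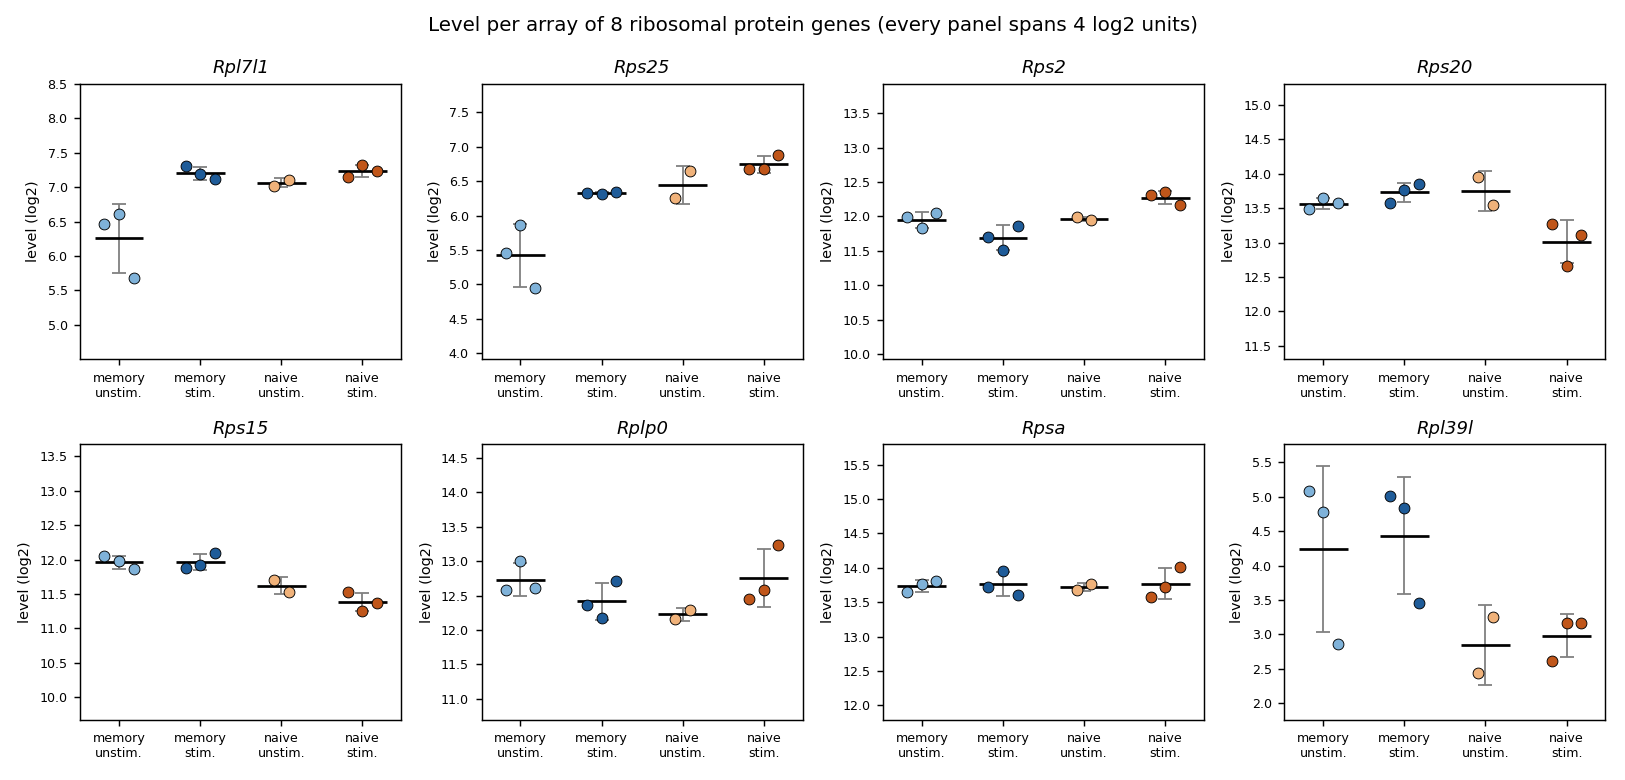
Level on the log2 scale (vertical axis) of 8 members in the 4 groups (horizontal axis), where each point is an array, black bars are group means, grey bars are SD, and every panel spans 4 units. Rpl7l1 and Rps25 were lowest in memory-derived unstimulated cells, Rps20 was lowest in naive-derived stimulated cells, and Rpsa was level across the groups.

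The final stimulation of memory-derived cells left nearly all ribosomal protein genes within the error. In this comparison 2 of 46 members passed (adjusted p below 0.05 in limma), both higher, where 31.6% of all genes tested passed (14.3% higher and 17.2% lower). The median difference of the members was 0.01 and that of all genes 0.00. The members' errors were close to those of other genes, with a median SE of 0.171 against 0.175. The 95% confidence interval lay wholly within 1 unit of 0 for 40 of 46 members (87%), compared with 73.3% of all genes. A unit is a doubling or halving on the scale read here. By level, the interval did so for 36 of 37 members with a mean above 8 and 4 of 9 below 8. Levels near the top are in effect ranks, so these intervals do not bound a change shared by most sets there. In bulk RNA, fewer cells of a type and less RNA per cell cannot be told apart.

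Rpl7l1 and Rps25 were the members that rose. Rpl7l1 is a paralog of the large-subunit protein Rpl7, and its yeast relative Rlp7 takes part in assembling the large subunit. Rpl7l1 was at 6.47, 6.61 and 5.69 in memory-derived unstimulated cells and at 7.30, 7.20 and 7.12 in memory-derived stimulated cells. All stimulated arrays lay above all unstimulated arrays, and the difference was 0.95 ± 0.206 (SE, n = 3 and 3, adjusted p = 0.00556, limma). Within experiments 1, 2 and 3 it was 0.83, 0.59 and 1.43. Both other Rpl7l1 probe sets tested were also higher, by 0.78 and 0.92 (adjusted p 0.021 and 0.0259 over all probe sets, limma).

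Rps25, a small-subunit protein known for its part in initiation at internal ribosome entry sites, was at 5.45, 5.86 and 4.95 without stimulation and at 6.33, 6.32 and 6.35 with it. The groups of Rps25 did not overlap either. The difference was 0.91 ± 0.204 (SE, n = 3 and 3, adjusted p = 0.00647, limma), and within experiments it was 0.88, 0.46 and 1.39. Memory-derived unstimulated array 3 was the lowest for both genes, and without it Rpl7l1 differed by 0.66 (adjusted p = 0.0037) and Rps25 by 0.68 (adjusted p = 0.0153) in limma. The Rps25 value rests on the only set with this symbol alone. Rps25 is 1 of 7 members with a mean below 8 that are also listed, with other genes, on a set above 8. The brightest such sets of these members differed by at most 0.56 in this comparison.

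The other named members of this comparison did not pass. Rplp2, a protein of the acidic stalk that recruits elongation factors, differed by -0.07 ± 0.144 (adjusted p = 0.759, limma). Rps6, the target of the S6 kinases, differed by -0.11 ± 0.115 (adjusted p = 0.515), Rpl11, which binds MDM2 when ribosome assembly is disturbed, by -0.03 ± 0.175 (adjusted p = 0.924), and Rps18 by 0.16 ± 0.206 (adjusted p = 0.62). The lowest value was that of Rps19, a small-subunit protein mutated in Diamond-Blackfan anaemia, at -0.68 ± 0.319 (adjusted p = 0.132). Its arrays were 12.42, 11.93 and 12.31 without stimulation and 11.47, 11.79 and 11.35 with it, so the groups did not overlap. Ranges of the groups did not overlap for 4 members that were higher and 2 that were lower, compared with 21.9% and 24.7% of all genes.

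By subunit, 1 of 20 small-subunit members tested, 0 of 22 large-subunit members and 1 of 4 paralogs passed. Rpl13a, a large-subunit protein that also has a role in silencing inflammatory mRNAs, differed by -0.36 ± 0.206 (adjusted p = 0.226, limma). The paralog pairs Rpl22 and Rpl22l1 differed by -0.09 and 0.06 (adjusted p 0.712 and 0.808), and Rps27 and Rps27l by 0.67 and -0.03 (adjusted p 0.167 and 0.874). Rpl7, beside its paralog Rpl7l1, differed by 0.32 ± 0.169 (adjusted p = 0.181).

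In naive-derived cells the final stimulation moved 0 of 46 members past the threshold, where 0.0135% of all genes (2 genes) passed in limma. At an unadjusted p below 0.05 there were 4 members, compared with 1249 of 14806 genes. The median difference was -0.02 for the members and 0.01 for all genes. Values ranged from -0.73 in Rps20 (adjusted p = 0.317) to 0.53 in Rplp0 (adjusted p = 0.597). The interval lay within 1 unit of 0 for 36 of 46 members (78.3%), compared with 86.9% of all genes. Rpl7l1 was at 7.02 and 7.11 without stimulation and 7.15, 7.32 and 7.23 with it, a difference of 0.17 ± 0.230 (adjusted p = 0.896). Rps25 was at 6.25 and 6.64, then 6.68, 6.67 and 6.88, a difference of 0.30 ± 0.228 (adjusted p = 0.798). The naive-derived groups of both genes did not overlap. That held for 10 members that were higher and 6 that were lower, compared with 13.6% and 12.8% of all genes. This comparison has only 2 unstimulated arrays.

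Whether the response to stimulation differed between the origins was tested by the interaction, naive-derived response minus memory-derived response. In limma 0 of 46 members passed, where 2.71% of all genes passed (1.61% higher and 1.09% lower), and 4 members had an unadjusted p below 0.05, compared with 3454 of 14806 genes. The interaction was -0.78 ± 0.309 for Rpl7l1 (adjusted p = 0.163), -0.62 ± 0.306 for Rps25 (adjusted p = 0.254), 0.84 ± 0.326 for Rplp0 (adjusted p = 0.154) and -0.90 ± 0.262 for Rps20 (adjusted p = 0.0831). The rise of Rpl7l1 and Rps25 was therefore not shown to differ between memory-derived and naive-derived cells. The interaction is the least precise comparison, with a median SE of 0.256 over the members.

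**Figure D2:**
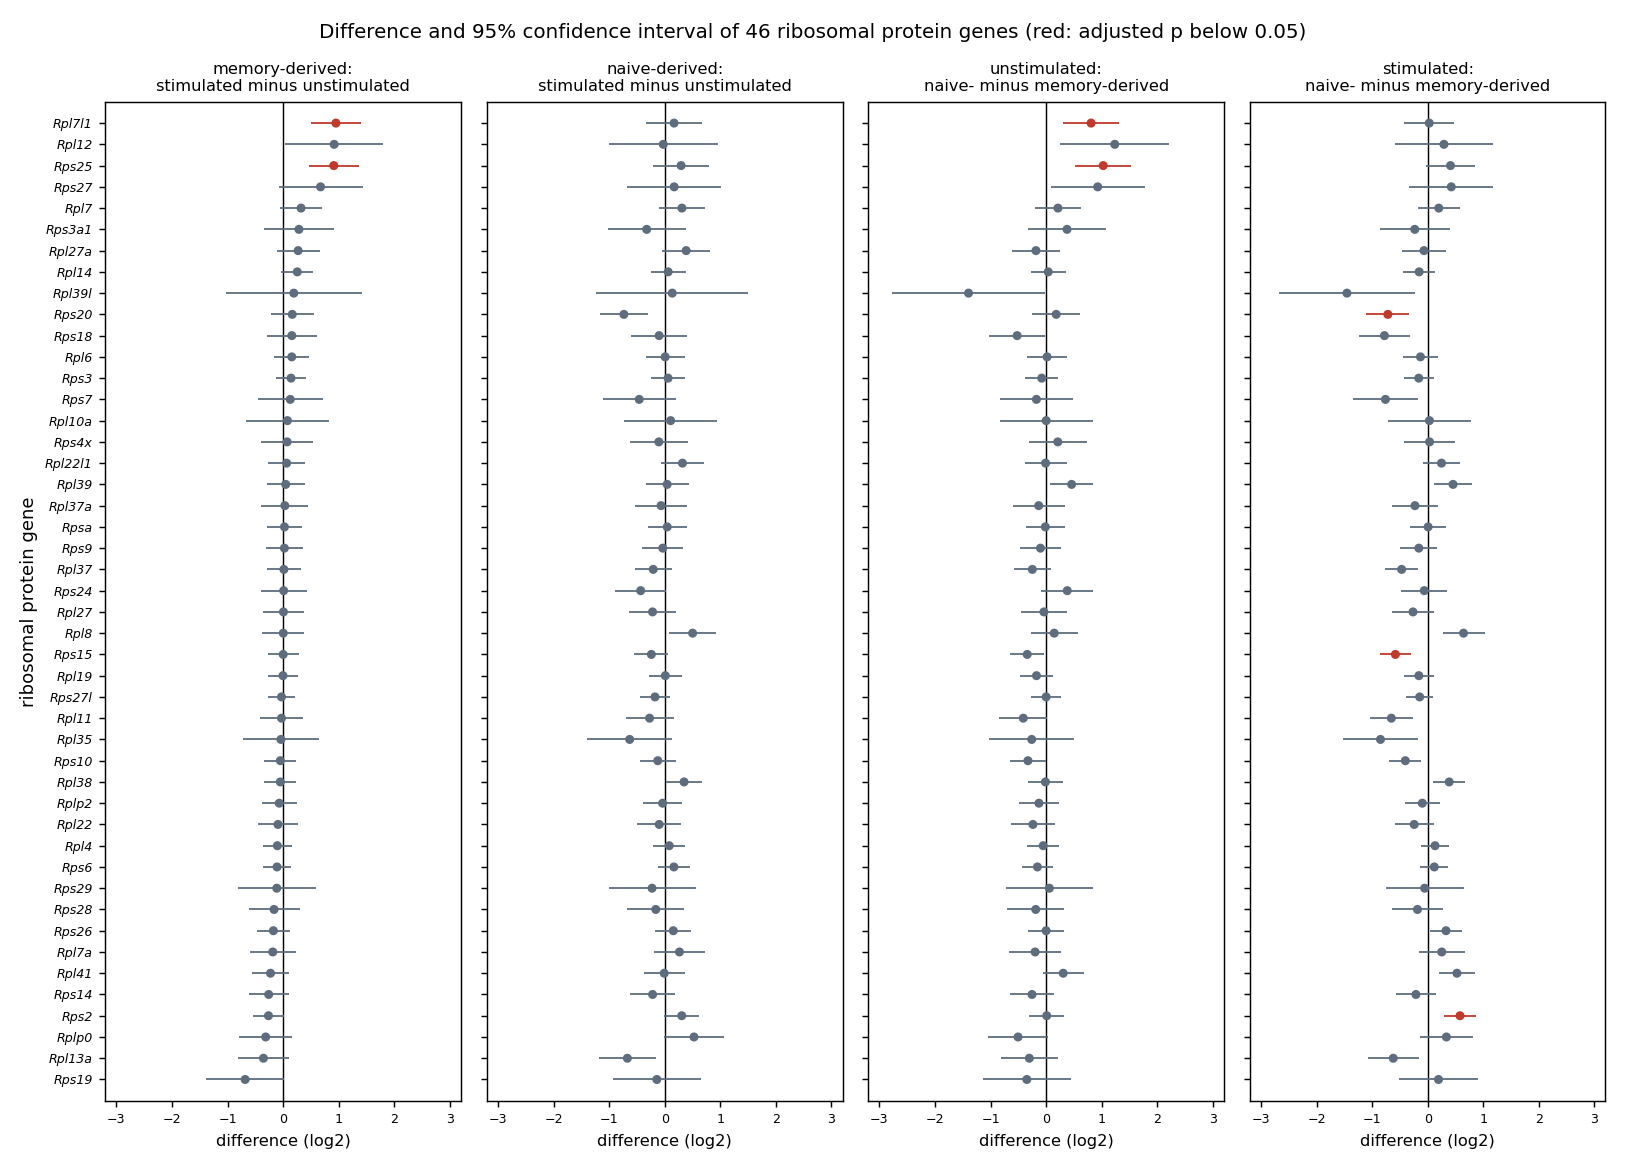
Fitted log2 difference (horizontal axis) of each of the 46 members tested (vertical axis, ordered by the first panel) in the 4 comparisons, with 95% confidence intervals as lines; red marks an adjusted p below 0.05. Most intervals include 0, and 2, 0, 2 and 3 members are red from left to right.

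Before the last stimulation, naive-derived and memory-derived cells differed in 2 of 46 members, both higher in naive-derived cells, where 25.8% of all genes passed (10.9% higher and 14.9% lower). The median difference was -0.05 for the members and -0.01 for all genes. The members were again Rpl7l1 and Rps25, and the comparison uses the same memory-derived unstimulated arrays as the stimulation comparison above, so the results are not independent. Rpl7l1 was at 7.02 and 7.11 in naive-derived cells against 6.47, 6.61 and 5.69, without overlap, a difference of 0.81 ± 0.230 (SE, n = 2 and 3, adjusted p = 0.0254, limma). Within experiments 1 and 2 it was 0.55 and 0.50. Rps25 was at 6.25 and 6.64 against 5.45, 5.86 and 4.95, also without overlap, a difference of 1.03 ± 0.228 (adjusted p = 0.00796), and within experiments 0.80 and 0.78. The brightest sets above 8 that list Rps25 or another member below 8 with other genes differed by at most 0.34 here.

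Both calls rest on only 2 naive-derived unstimulated arrays. The size of the Rpl7l1 difference also depended on memory-derived unstimulated array 3, without which it was 0.52 (adjusted p = 0.0195, limma). Leaving out naive-derived unstimulated array 1 or array 2 leaves 1 array in that group, and Rpl7l1 then differed by 0.85 and 0.76. Rps25 differed by 1.22 without array 1 and by 0.83 without array 2 of that group. Scaled to the hybridization controls, Rpl7l1 had an adjusted p of 0.0873, and fitted on the groups of the comparison only, 0.0939.

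The member with the lowest value in this comparison was Rpl39l, a paralog of Rpl39 best known from male germ cells. Rpl39l was at 5.08, 4.78 and 2.87 in memory-derived unstimulated cells, 5.01, 4.84 and 3.45 in memory-derived stimulated cells, 2.44 and 3.25 in naive-derived unstimulated cells and 2.62, 3.16 and 3.17 in naive-derived stimulated cells. Memory-derived cells of experiments 1 and 2 stood above all other arrays, and those of experiment 3 lay near the naive-derived cells. Unstimulated, Rpl39l differed by -1.40 ± 0.622 (adjusted p = 0.126, limma). With the experiment number as a block it was -1.76 and passed (adjusted p = 0.0402), while with origin and experiment together as a random block it was -1.39 and did not (adjusted p = 0.11). Without memory-derived unstimulated array 3 it was -2.09 and passed (adjusted p = 0.0146). The within-experiment differences were -2.64 and -1.53. Rpl39 itself was at 4.05 and 4.11 against 3.75, 3.52 and 3.61, a difference of 0.46 ± 0.175 (adjusted p = 0.0785).

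The other named members differed by -0.51 (Rplp0, adjusted p = 0.156), -0.41 (Rpl11, adjusted p = 0.151), -0.52 (Rps18, adjusted p = 0.123) and 0.93 (Rps27, adjusted p = 0.101), and none passed in limma. Rpl12, a large-subunit protein at the base of the stalk, had the highest value, 1.23 ± 0.444 (adjusted p = 0.0638), in arrays of 5.92 and 6.39 against 5.16, 5.78 and 3.82. At an unadjusted p below 0.05 there were 9 members, compared with 5551 of 14806 genes. Ranges of the groups did not overlap for 7 members that were higher and 6 that were lower, compared with 24.4% and 28.9% of all genes.

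After the last stimulation, 3 of 46 members differed between the origins, 1 higher and 2 lower in naive-derived cells, where 3.7% of all genes passed (1.69% higher and 2.01% lower). All 3 were small-subunit genes at the top of the scale. The median difference was -0.08 for the members and -0.01 for all genes, and 16 members had an unadjusted p below 0.05, compared with 2418 of 14806 genes. Ranges of the groups did not overlap for 9 members in the higher and 10 in the lower direction, compared with 11.4% and 14.3% of all genes.

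Rps2, which lies at the mRNA entry side of the small subunit, was at 11.70, 11.51 and 11.87 in memory-derived stimulated cells and 12.31, 12.35 and 12.16 in naive-derived stimulated cells. The groups did not overlap, and Rps2 was higher in naive-derived cells by 0.58 ± 0.129 (SE, n = 3 and 3, adjusted p = 0.0309, limma). Within experiments the difference was 0.61, 0.84 and 0.30.

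Rps20 was lower in naive-derived stimulated cells, at 13.27, 12.66 and 13.10 against 13.57, 13.76 and 13.85. The difference was -0.72 ± 0.174 (adjusted p = 0.0486, limma), without overlap, and within experiments -0.30, -1.10 and -0.75. Rps15, which lies at the head of the small subunit, was lower too, at 11.52, 11.25 and 11.37 against 11.88, 11.92 and 12.09, by -0.58 ± 0.125 (adjusted p = 0.0278). Its within-experiment differences were -0.36, -0.67 and -0.72.

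These 3 calls did not hold under every alternative. With the experiment number as a block, Rps2 had an adjusted p of 0.0517 and Rps20 of 0.067, while Rps15 still passed (0.0467, limma). The 2 probe sets of Rps15 went opposite ways, at -0.58 and 0.73, and their mean was 0.07 (adjusted p = 0.852). For Rps20 both bright sets were lower, by -0.72 and -0.91, and both end in _x_at, the manufacturer's suffix for sets that may also bind other transcripts. Such sets stood for 13 of the 48 members, among them Rps2, whose only set is of this kind and which therefore has no value with these sets left out. With them left out, Rps20 was represented by a dim set at -0.06 (adjusted p = 0.877).

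Probe sets of the same gene often went different ways. Of the 22 members with at least 2 tested sets, the sign of the difference varied among a gene's sets in 13 for memory-derived stimulation, 14 for naive-derived stimulation, 11 for origin unstimulated and 19 for origin stimulated. The spread between a gene's sets had a median of 0.40 in memory-derived stimulation, larger than the members' median SE of 0.171.

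The sets differed by level, in a split at 8 that was chosen after the values were seen. Of the 46 members, 37 had a mean above 8, and of these 0 passed in memory-derived stimulation or in origin unstimulated and 3 passed in origin stimulated. Of all 941 probe sets above 8, 197 were higher and 164 lower in memory-derived stimulation. In origin unstimulated 174 and 127 were, and in origin stimulated 16 and 29. These 941 include 71 sets of the members and 81 that list a ribosomal protein symbol with others. Tested in the same way, the 71 member sets had 0 higher and 1 lower in memory-derived stimulation. They had 0 and 0 in origin unstimulated and 1 and 3 in origin stimulated. The 9 members below 8 were Rpl12, Rpl14, Rpl27a, Rpl39, Rpl39l, Rpl7l1, Rps25, Rps27 and Rps6. Relative to memory-derived unstimulated cells, the median of these 9 was at 0.18, 0.17 and -0.32 on those arrays, 0.77, 0.51 and 0.14 with stimulation, 0.43 and 0.49 in naive-derived unstimulated cells and 0.43, 0.36 and 0.65 in naive-derived stimulated cells. Memory-derived unstimulated array 3 was the lowest, and the ranges of memory-derived stimulated and unstimulated cells overlapped.

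Counting every probe set with a single member symbol, the 71 sets above 8 had a median difference of -0.00 in memory-derived stimulation and -0.09 in origin unstimulated. The 29 sets below 8 had medians of 0.43 and 0.68, with 25 and 21 of 29 above 0, while all sets on the array below 8 had medians of 0.01 and 0.02. For 11 members a set above 8 and another below 8 were both tested. In origin unstimulated, 7 of their 17 dim sets passed as higher (Rpl35, Rpl41, Rps10, Rps18, Rps24 and Rps9) and 1 as lower (Rpl22), and 0 of their 29 bright sets passed. Of all sets in this comparison, 2641 of 32323 below 8 were higher and 3121 lower. The dim and bright sets of these genes thus gave different answers, and the cause was not tested. Of the 9 dim members, 7, with Rps25 among them, were also listed on a set above 8 that names several genes. The brightest such sets had a median of 0.03 in memory-derived stimulation (highest 0.56), where the members' own sets had 0.27 (highest 0.92). In origin unstimulated the medians were -0.13 (highest 0.34) and 0.46 (highest 1.23).

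**Figure D3:**
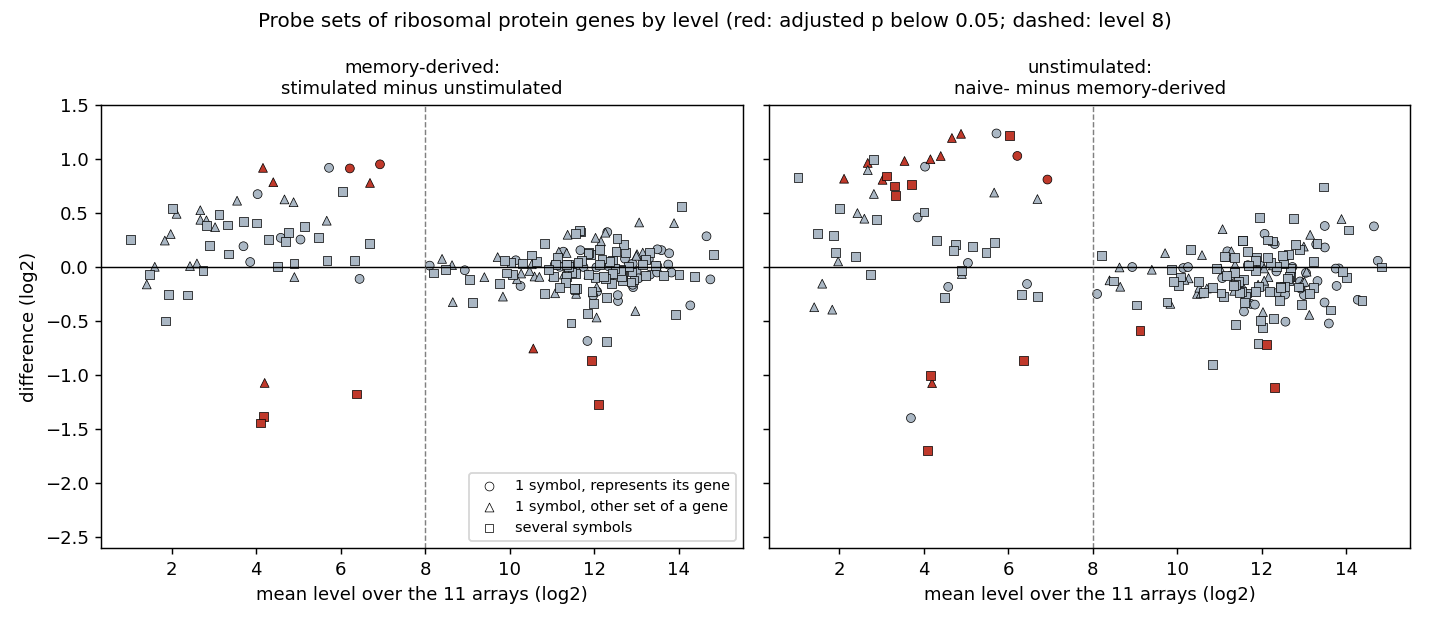
Difference (log2, vertical axis) against mean level over the 11 arrays (log2, horizontal axis) of every tested probe set that lists a ribosomal protein symbol, for memory-derived stimulation (left) and origin unstimulated (right); the dashed line is at a level of 8 and red marks an adjusted p below 0.05 over all probe sets. Sets above 8 gather around 0, and sets below 8 lie mostly above 0.

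Genes that act with ribosomal proteins were followed in lists. Of 17 other TOP mRNAs tested, 1 rose and 1 fell in memory-derived stimulation (11.8%, compared with 31.6% of all genes), with a median of 0.02. Npm1, a nucleolar chaperone of ribosome assembly, rose by 0.98 ± 0.208 (adjusted p = 0.00501, limma), and Vim, the intermediate filament protein vimentin, fell by 1.61 (SE 0.273, adjusted p = 0.00156). In origin unstimulated, Npm1 was higher by 0.96 and Nap1l1, a histone chaperone, by 0.59 (adjusted p 0.0122 and 0.013), which made 2 of 17 where 25.8% of all genes passed. In origin stimulated Tpt1, a growth-related TOP mRNA, was higher by 1.13 (adjusted p = 0.0118), 1 of 17 where 3.7% of all genes passed in limma. Of the ribosome components outside the naming rule only Fau was on the array, at -0.10 ± 0.123 in memory-derived stimulation (adjusted p = 0.599).

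The assembly and import partners of ribosomal proteins had the largest share of passing genes among these lists in memory-derived stimulation and in origin unstimulated. Of 21 tested, 18 rose in memory-derived stimulation and 0 fell, with a median difference of 0.91 compared with 0.01 for the ribosomal protein genes. Of the latter, 37 of 46 had a mean above 8, near the top, where a shared change cannot be seen. Their median therefore does not show that these mRNAs stayed level. The 29 member sets below 8 had a median of 0.43 in this comparison, with 25 above 0 and 4 below. Of all genes, 14.3% rose and 17.2% fell in this comparison. Grwd1, a chaperone of Rpl3, was at 6.21, 6.50 and 4.36 without stimulation and 7.47, 7.32 and 7.14 with it, and rose by 1.62 ± 0.422 (adjusted p = 0.0136, limma). Pno1, a small-subunit assembly factor, rose by 1.39 ± 0.246 (adjusted p = 0.0019). In origin unstimulated 11 of 21 were higher and 0 lower, where 10.9% and 14.9% of all genes were, with Mdn1, the ATPase that remodels large-subunit precursors, at 1.41 ± 0.200 (adjusted p = 0.000889). Mdn1 was the partner that passed in the interaction, at -1.46 ± 0.268 (adjusted p = 0.0279), so its response was smaller in naive-derived cells.

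Of 22 regulators of ribosomal protein synthesis, 9 rose and 2 fell in memory-derived stimulation (50% together), compared with 14.3% and 17.2% of all genes. Eif4ebp1, the mTOR target that binds the cap-binding protein, was at 5.58, 5.51 and 5.65 without stimulation and 7.64, 7.83 and 7.77 with it, and rose by 2.17 ± 0.126 (adjusted p = 1.51e-05, limma). Larp4, a La-related RNA-binding protein, rose by 1.57 ± 0.320 (adjusted p = 0.004). Pdcd4, an inhibitor of the helicase eIF4A, fell by 2.57 (SE 0.288, adjusted p = 0.000199), and Eif4ebp2 fell by 0.78 (SE 0.156, adjusted p = 0.00359). In origin unstimulated 6 were higher and 2 lower (36.4% together, compared with 25.8% of all genes), among them Myc at 1.59 ± 0.478 (adjusted p = 0.0321). In the interaction Eif4ebp1 was at -1.33 and Pdcd4 at 1.88 (adjusted p 0.0171 and 0.0472).

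**Figure D4:**
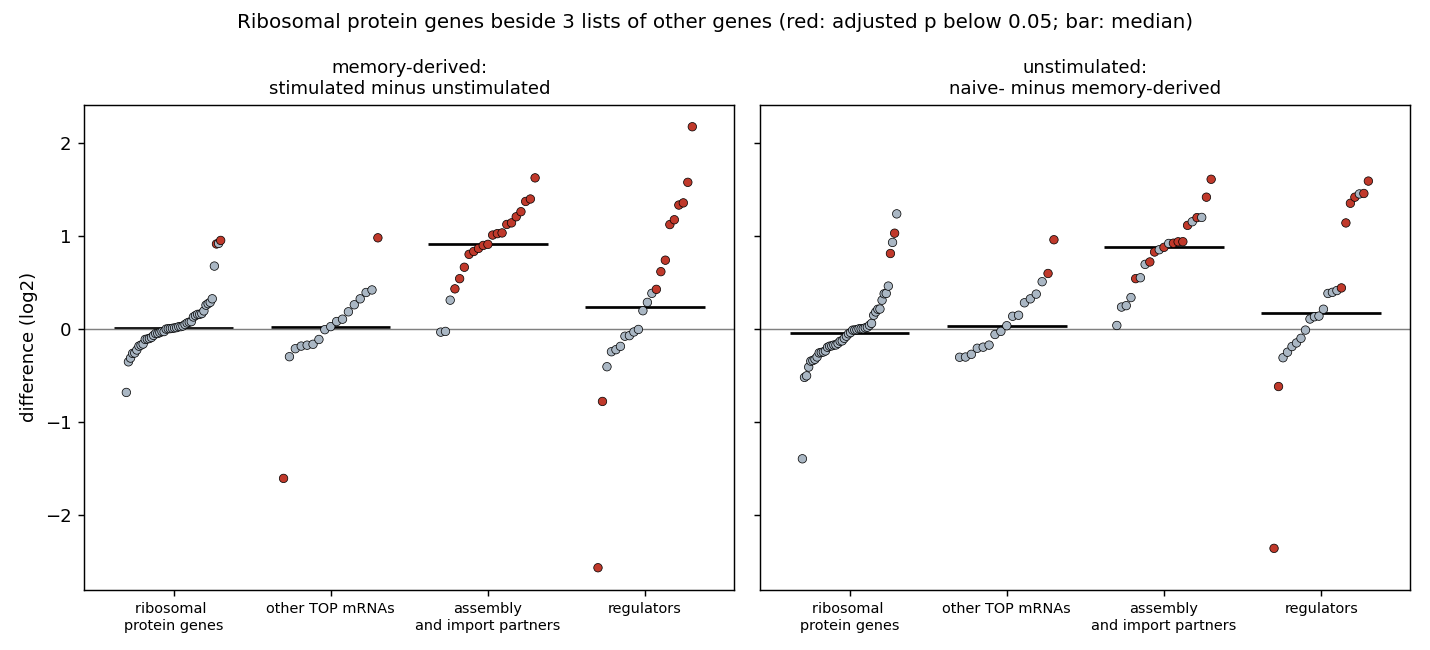
Difference (log2, vertical axis) of each tested gene in 4 groups of genes (horizontal axis), for memory-derived stimulation (left) and origin unstimulated (right); points are genes in order of their difference, black bars are medians and red marks an adjusted p below 0.05. In the left panel the medians are 0.01, 0.02, 0.91 and 0.24 from left to right.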

How the data were processed

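RNA was hybridized to 11 Affymetrix arrays; per the submitters' processing notes, Affymetrix Expression Console was used. The authors deposited values from 0 to 4.56 that were already quantile normalized; their log10 unit was inferred here, since the deposited hybridization controls rose by 0.944 to 1.77 per log10 concentration. Summarization is not given in the sources used here, and array number limits the precision. Values were multiplied by 3.32 to log2. Of the probe sets, 34945 had 1 symbol, 932 several and 9160 none listed, and 64 controls were left out. Genes whose set exceeded the 40th percentile of values on 2 or more arrays were tested. A limma 3.58.1 model (R 4.3.3; two-sided, Benjamini-Hochberg over 14806 genes) was fitted to all arrays, without a block, and tested on simulated data. The sample descriptions number 3 independent experiments, which pairs arrays by design. Deviations of arrays of 1 experiment correlated at -0.07 to 0.11 (15 pairs, median 0.03). Those of different experiments correlated at -0.13 to 0.11 (30 pairs, median -0.004). The 5 pairs of 1 experiment and origin were all positive, at 0.05 to 0.11 (median 0.09), a weak pairing that the main fit leaves out. Blocked values stand beside results they change. Members, lists and naming rule were chosen with earlier results of these data known; the rule takes up to 6 passing members per direction, fixed names, and up to 4 genes per list. Figures used matplotlib 3.10.9 in Python 3.11.15.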

Additional observations from a re-analysis of the deposited data

How the results depend on the processing

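Of the 7 calls, Rpl7l1 and Rps25 in memory-derived stimulation held in each of 21 alternatives (highest adjusted p 0.0242 and 0.0497). Several of these could not move the differences of 0.95 and 0.91. Leaving out _x_at sets or a naive-derived array left both unchanged. Rps25 has a single set, so the mean of all sets could not test it. Rpl7l1 and Rps25 in origin unstimulated were lost in 4 and 1, and in origin stimulated Rps15 was lost in 8 of 21 and turned in 1 more, Rps2 in 11 of 20 and Rps20 in 16 of 21; the cause was not tested. The mean of all probe sets turned Rps15 to 0.075 (adjusted p = 0.852).

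With the replicate block, the experiment number in the labels, counts were 1 lower in origin unstimulated (Rpl39l), and 0 higher and 1 lower in origin stimulated, and the naive-derived stimulation median was 0.032. It changed no other count of calls.

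Counts of members higher and lower, with adjusted p below 0.05 in limma, moved as follows. In memory-derived stimulation 1 was lower with the mean of all probe sets or with the groups of the comparison only, and 3 were higher and 2 lower when each probe set was tested on its own and a member counted with at least 1 passing set, an alternative chosen after seeing the data. In origin unstimulated 1 was higher when arrays were scaled to the hybridization controls, 4 with the stricter filter or without _x_at sets, and 8 when each set was tested on its own (10 sets); 1 was lower with the mean of all probe sets, with experiments 1 and 2 only, or when each set was tested on its own. In origin stimulated 3 were higher and 4 lower with the stricter filter, and 2 higher with a mean-variance trend. There 0 were higher under control scaling, experiments 1 and 2 only or the groups only. There 1 was lower under control scaling, no filter, no _x_at sets or experiments 1 and 2 only, and 0 with the mean of all sets or the groups only. In the interaction 1 was lower with the stricter filter (Rps20). The groups of the comparison only cannot be applied to the interaction.

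The medians moved to -0.11 in origin unstimulated and -0.16 in origin stimulated under control scaling. Without _x_at sets they were 0.046 in naive-derived stimulation and 0.029 in origin stimulated, and the latter was -0.00987 with the mean of all sets and -0.17 with experiments 1 and 2 only. Leaving out each array in turn gave medians of -0.044 to 0.081 in memory-derived stimulation, -0.048 to 0.073 in naive-derived stimulation, -0.08 to -0.03 in origin unstimulated, -0.14 to -0.035 in origin stimulated and -0.16 to -0.029 in the interaction. Counts were then 2 to 3 higher in memory-derived stimulation, 0 to 3 higher and 0 to 1 lower in origin unstimulated, and 0 to 1 higher and 0 to 3 lower in origin stimulated; 0 higher in origin unstimulated came without naive-derived unstimulated array 2.

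With 2 or 3 arrays a group, and values compressed near 0, small changes cannot be seen. Quantile normalization removes any shift shared by the top ranks.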

Other observations

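Rps4l was left out of the ribosomal protein genes because the gene table used here marks it as a transcribed pseudogene, yet its probe set passed in both comparisons of origin. Rps4l was at 4.06, 3.89 and 3.13 in memory-derived unstimulated cells, 4.58, 4.25 and 3.87 in memory-derived stimulated cells, 2.65 and 1.38 in naive-derived unstimulated cells and 2.74, 2.42 and 2.73 in naive-derived stimulated cells. All memory-derived arrays lay above all naive-derived arrays. The difference of naive-derived minus memory-derived cells was -1.68 (SE 0.369, adjusted p = 0.00764, limma) without stimulation and -1.60 (SE 0.330, adjusted p = 0.0229) with it. The parent gene Rps4x was at 0.21 (adjusted p = 0.568) and 0.03 (adjusted p = 0.96) in the same comparisons. Over 21 alternatives, the adjusted p of Rps4l ranged from 0.00251 to 0.0891 without stimulation and from 0.00475 to 0.0949 with it.

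The dimmest of the Rpl22 probe sets, at a mean level of 4.20, fell by 1.07 on the log2 scale in memory-derived stimulation (adjusted p = 0.00107 over all probe sets, limma), while its sets at 12.4 and 10.5 differed by -0.09 and -0.04. One of the 2 sets of Rps9 above 8 fell by 0.75 in the same comparison (adjusted p = 0.013), while the other differed by 0.02. A set of Rps9 below 8 passed as higher there, and the differences of its sets spread over 1.54. With each set tested on its own, Rps9 is therefore counted among both the higher and the lower members.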
